A study of Capra hircus with 36 samples.

Results

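chi-miR-10a-5p, chi-miR-10b-5p and 6 further mature forms of miR-10a, miR-10b, miR-196a and miR-196b are the microRNAs described here, in 6 tissues of goats from 2 altitudes. They were chosen by name, as every listed 5p or 3p form of these 4 precursors, which gave 8 of the 1391 mature miRNAs in the deposited counts. None of the 8 carries the same counts as another listed miRNA in every library. Levels are in RPM, the count of a miRNA scaled to the sum of counts over all miRNAs of its library.

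The study compared Tibetan goats kept at high altitude, 3000 m, with Chuandong White goats kept at low altitude, 600 m. Each population gave 3 adult females of about 3 years, and each goat gave spleen, lung, liver, kidney, longissimus muscle and heart, 36 libraries in all. The populations also differed in site, body weight and rearing, which was stocking or nomadism at high altitude and home rearing at low altitude. Breed, these factors and altitude cannot be told apart in this design, so "altitude" below stands for all of them. Each library is bulk tissue, in which fewer cells of a type and less RNA per cell cannot be told apart.

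The 4 precursors are encoded inside the HOX clusters, the gene groups that set position along the body axis and stay active in adult tissues according to where the tissue arose. In mammals the miR-10 genes lie among anterior HOX genes and the miR-196 genes among posterior ones. Both families are known to pair with HOX messenger RNAs. In the goat annotation the gene names on either side are HOXB5 and HOXB3 for MIR10A, HOXD8 and HOXD3 for MIR10B, HOXB13 and HOXB9 for MIR196A, and HOXA9 and HOXA10 for MIR196B. Mammals also carry a miR-196a gene in the HOXC cluster, which has no named entry in this annotation and whose reads would be counted with those of MIR196A. A precursor is cut into a 5p arm and a 3p arm, and the 5p arm is the one usually loaded for target repression in these families. The 5p arms of miR-10a and miR-10b are nearly identical in sequence, as are those of miR-196a and miR-196b, so the assignment of reads within a pair is less certain than for unrelated miRNAs.

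Library totals ran from 7108635 to 14407748 counts, with a median of 10419740.5, so 3 counts correspond to 0.208 to 0.422 RPM. The 4 5p arms and the 3p arms of miR-10a and miR-10b had reads in all 36 libraries, and these 6 had a mean of at least 10 RPM. The 3p arms of miR-196a and miR-196b fell below that level and were missing from many libraries.

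The tissue labels were compared with 18 marker miRNAs, of which 16 are listed. In 15 of the 16 the highest mean was in the labelled tissue, among them miR-208b-3p in heart, miR-133a-3p in muscle, miR-122-5p in liver and miR-34c-5p in lung. The exception was miR-194-5p, listed for kidney, with a mean of 16949 RPM in liver and 2568 RPM in kidney. No entry exists for miR-192-5p or miR-449a-5p.

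Kidney libraries stood apart from each other. The epithelial marker miR-200b-3p was at 0 in 4 of the 6 kidney libraries and at 3023 RPM in high-altitude replicate 2 and 2896 RPM in low-altitude replicate 3. The same 4 libraries had 0 counts of miR-200b-5p too. miR-200a-3p and miR-429-3p, which share a precursor cluster with miR-200b in mammals, were counted in all 6 and were highest in the same 2 libraries. miR-200a-3p was at 1564 and 3777 RPM in these and at 653 to 1269 RPM in the other 4, and miR-429-3p at 324 and 392 RPM against 114 to 209 RPM. Whether miR-200b-3p itself was absent from the 4 libraries or lost in making the counts cannot be told from the files. Summed over the 3 markers, kidney levels were 2336, 8003 and 2099 RPM at high altitude and 1700, 3802 and 8213 RPM at low altitude, with miR-194-5p the most abundant in each library. Without miR-200b-3p the sums were 2336, 4980 and 2099 RPM at high and 1700, 3802 and 5317 RPM at low altitude, still highest in the same 2 libraries. Kidney levels and ratios, and the edgeR fits of miR-10a-5p and miR-10b-5p, are also given without these 2 libraries. This choice was made after seeing the data, as was the look at the miR-200b cluster. Tests over goats, the specificity index and correlations include these 2 libraries.

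Together the 4 miR-10 forms took from 0.361% of a library's counts, in liver, to 51.4%, in kidney. By tissue the mean share was 40.8 ± 13.1% (SD, n = 6) in kidney, 12.4 ± 8.32% in lung, 10.7 ± 5.97% in muscle, 2.94 ± 2.26% in spleen, 1.33 ± 0.485% in heart and 0.503 ± 0.124% in liver. Without the 2 kidney libraries the kidney share was 48.8 ± 4.75% (SD, n = 4). miR-10b-5p was the most abundant of all miRNAs in 6 of 6 kidney libraries. Because shares of a library sum to a whole, a change in so abundant a form also moves the RPM of every other miRNA in that library.

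miR-10a-5p, from the HOXB cluster, was high in lung and kidney. In lung the high-altitude libraries held 205461, 50135 and 192108 RPM and the low-altitude libraries 89339.5, 42157 and 48314 RPM. In kidney they held 114526, 59209.6 and 113262 RPM at high altitude and 111809.9, 103862 and 55599 RPM at low altitude. High-altitude replicates 1 and 3 stood above the other lung libraries, and kidney libraries high-altitude replicate 2 and low-altitude replicate 3 were the lowest of that tissue, while in both tissues the altitudes overlapped.

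In spleen miR-10a-5p was at 26665, 7324 and 12365 RPM at high altitude and at 5782, 5365 and 5383 RPM at low altitude. Every high-altitude spleen library was thus above every low-altitude one, with replicate 1 far above the rest. In muscle it held 5788, 2217 and 8637 RPM against 3490, 3024 and 3145 RPM at low altitude. Liver held 1931, 1826 and 3788 RPM at high and 2441, 3039 and 2125 RPM at low altitude, and heart 1618, 1144 and 1093 RPM at high and 779.6, 2044 and 456 RPM at low altitude. In these 3 tissues the altitudes overlapped, and heart had the lowest library of all 36.

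The order of tissue means for miR-10a-5p was lung 104586 ± 74963 RPM (SD, n = 6), kidney 93045 ± 27879.6, spleen 10481 ± 8363, muscle 4383 ± 2406, liver 2525 ± 757 and heart 1189 ± 571. Without the 2 kidney libraries kidney was at 110865 ± 4799 RPM (SD, n = 4), above the lung mean of all 6 goats. Within these 4 goats kidney was above lung in 2, so the order of these 2 tissues is not settled. Tissues of the same goat were compared on log2(RPM + 1) with an exact sign-flip permutation test over 6 goats, whose smallest possible p is 0.031, reached when all 6 goats go the same way. That happened in 13 of the 15 tissue pairs of miR-10a-5p. Lung and kidney were not separated, with lung higher in 2 of 6 goats and a mean log2 difference of -0.08 ± 0.79 (SD, exact p = 0.844). Muscle and liver were the other neighbours not separated, with muscle higher in 5 of 6 goats by 0.69 ± 0.59 (exact p = 0.0625).

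miR-10b-5p, from the HOXD cluster, was highest in kidney and second highest in muscle. In kidney it held 396285, 213546 and 397941 RPM at high altitude and 401762, 313092 and 164936 RPM at low altitude. In muscle it held 120502, 41844 and 203782 RPM at high and 111222, 75667 and 65335 RPM at low altitude. Kidney was above muscle in each goat although the libraries of the 2 tissues overlapped, and the 2 lowest kidney libraries were the same as for miR-10a-5p.

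In lung miR-10b-5p was at 29824, 4612 and 31652 RPM at high altitude and at 11864, 16881 and 23589.6 RPM at low altitude. In spleen it was at 47868, 21958 and 8486 RPM at high and at 12546, 12477 and 10039 RPM at low altitude. High-altitude replicate 2 was the lowest lung library, replicate 1 the highest spleen library, and the altitudes overlapped in both tissues. Heart held 17971, 10489.8 and 18045 RPM at high and 8039, 7066 and 11005 RPM at low altitude, with overlap only between high-altitude replicate 2 and low-altitude replicate 3. Liver held 1671, 2874 and 2399 RPM at high and 1836, 3831 and 2395 RPM at low altitude, with full overlap.

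Tissue means of miR-10b-5p ran from kidney, 314594 ± 103758 RPM (SD, n = 6), to muscle 103059 ± 57335, lung 19737 ± 10559, spleen 18896 ± 14947, heart 12103 ± 4805 and liver 2501 ± 783. Without the 2 kidney libraries kidney was at 377270 ± 42847 RPM (SD, n = 4) and still first. All 6 goats went the same way in 12 of 15 tissue pairs, among them kidney over muscle by a log2 difference of 1.71 ± 0.50 (SD, exact sign-flip p = 0.031, n = 6 goats). Lung and spleen were not separated, with lung higher in 3 of 6 goats (exact p = 0.875), nor were spleen and heart, with spleen higher in 4 of 6 goats (exact p = 0.3125). The remaining pair, heart and lung, had heart higher in 1 of 6 goats (exact p = 0.1875).

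**Figure D1:**
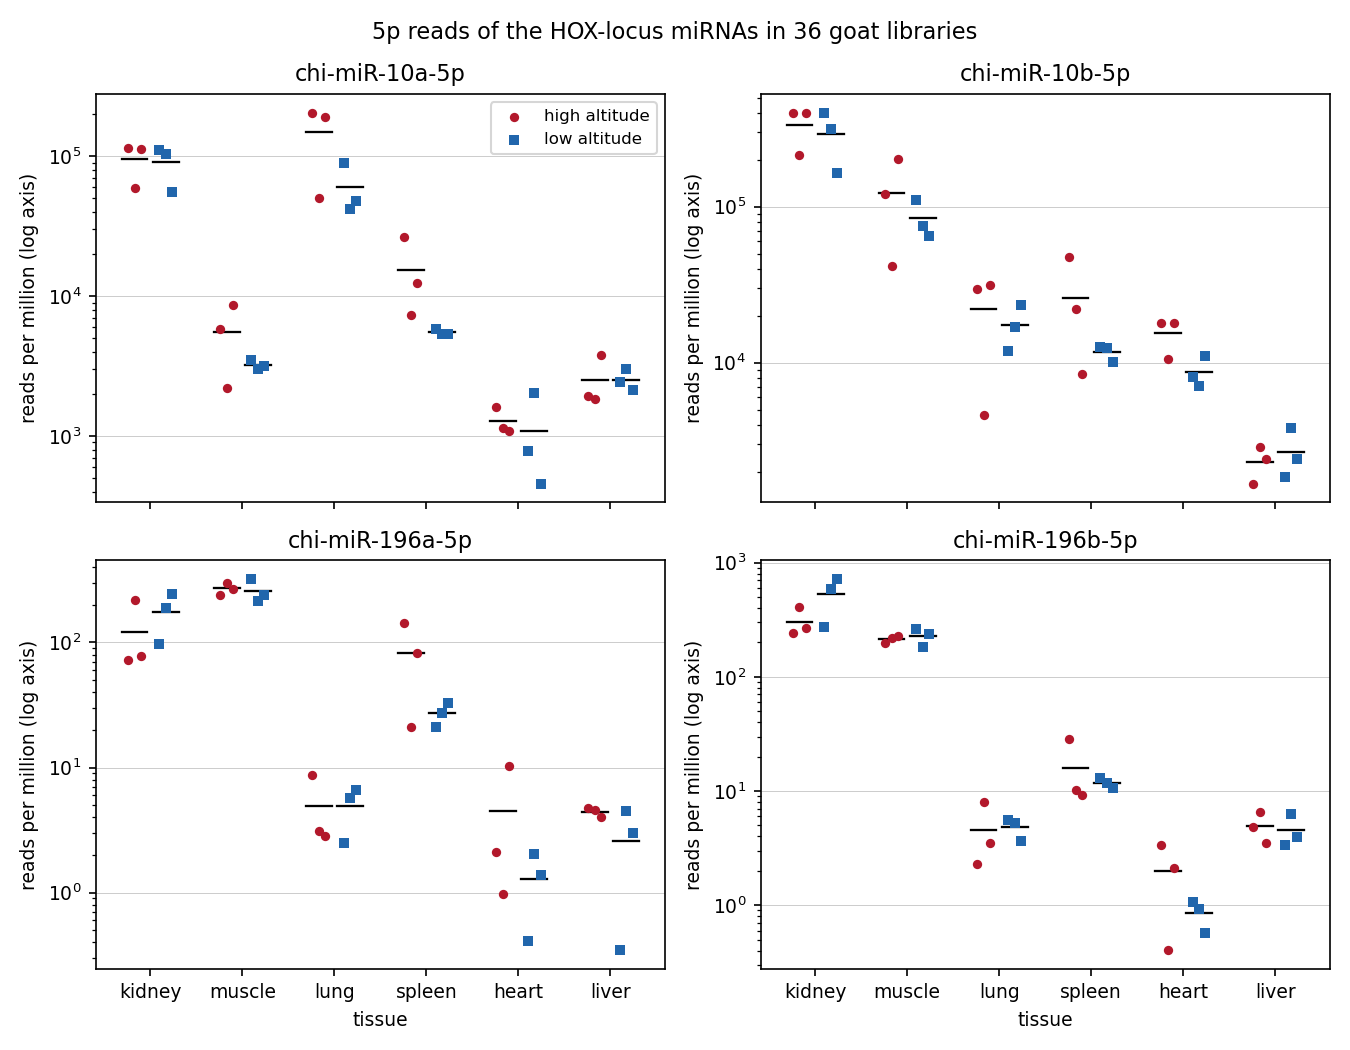
Levels of the 5p arms of miR-10a, miR-10b, miR-196a and miR-196b in RPM on a log scale, by tissue and altitude, with 1 point per library and black bars at the mean of 3 libraries. miR-10a-5p is highest in lung and kidney, at tissue means of 104586 and 93045 RPM, and miR-10b-5p in kidney and muscle, at 314594 and 103059 RPM.

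The 2 miR-10 forms lean opposite ways in lung and muscle, which their ratio within a library shows without any scaling between libraries. The log2 ratio of miR-10a-5p to miR-10b-5p in lung was 2.78, 3.44 and 2.60 in high-altitude and 2.91, 1.32 and 1.03 in low-altitude libraries. In muscle it was -4.38, -4.24 and -4.56 at high and -4.99, -4.65 and -4.38 at low altitude. All lung libraries favour miR-10a-5p and all muscle libraries favour miR-10b-5p.

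As geometric means, miR-10a-5p exceeded miR-10b-5p 5.10-fold in lung (2.05 to 10.9 over 6 libraries), and miR-10b-5p exceeded miR-10a-5p 23.1-fold in muscle (18.9 to 31.9). miR-10b-5p was also the higher form in heart, by 10.6-fold (3.46 to 24.2), and in kidney, by 3.35-fold (2.97 to 3.61). The kidney ratio had the smallest spread of the 6 tissues, a mean log2 of -1.74 ± 0.13 (SD), with high-altitude replicate 2 at -1.85, low-altitude replicate 3 at -1.57 and the other 4 between -1.85 and -1.59, a mean of -1.76 ± 0.11. Liver held both forms at similar levels, with a mean log2 ratio of 0.02 ± 0.49, and spleen lay at -0.85 ± 0.73.

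Of the 15 tissue pairs, 14 differed in this ratio in the same direction in all 6 goats (exact sign-flip p = 0.031 over 6 goats, Benjamini-Hochberg adjusted p = 0.0335 over the 15 pairs). The exception was heart against muscle, with 5 of 6 goats on the same side (exact p = 0.0625). Within tissues, altitude gave exact permutation p values of 0.3 in kidney, lung and muscle, 0.7 in spleen, 0.8 in heart and 0.9 in liver, from 3 against 3 goats with a smallest possible p of 0.1. How many reads of one form were assigned to the other was not tested. In a muscle library miR-10a-5p was as low as 0.0314 of miR-10b-5p, and in a lung library miR-10b-5p was as low as 0.092 of miR-10a-5p.

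**Figure D2:**
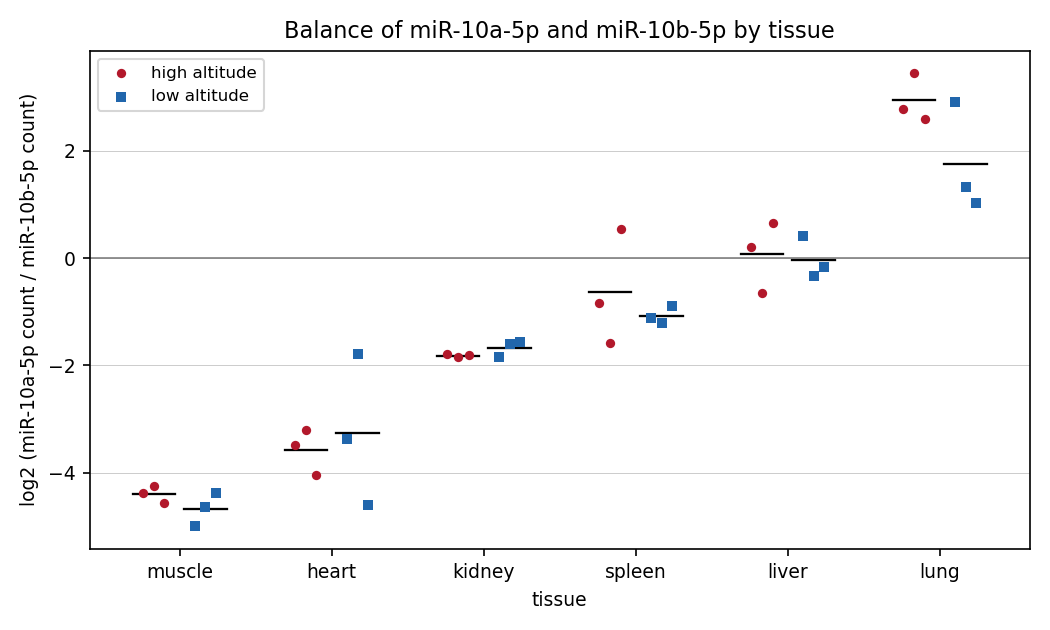
Log2 ratio of miR-10a-5p to miR-10b-5p counts in each library, by tissue and altitude, with black bars at the mean of 3 libraries. Lung libraries lie above 0, with a mean of 2.35, and muscle libraries furthest below it, with a mean of -4.53.

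miR-196a-5p, whose reads cannot be assigned to HOXB alone, was highest in muscle, at 242, 300.2 and 270.0 RPM at high altitude and 322, 215 and 242 RPM at low altitude. In kidney it was at 72.7, 217 and 77.5 RPM at high and at 96.8, 190.0 and 242 RPM at low altitude. In spleen it was at 142.4, 20.97 and 83.1 RPM at high and at 20.9, 27.4 and 32.8 RPM at low altitude. Muscle libraries were close together, kidney was highest in low-altitude replicate 3 and high-altitude replicate 2, and the spleen altitudes overlapped through high-altitude replicate 2. Lung, liver and heart held 4.90 ± 2.50, 3.52 ± 1.68 and 2.88 ± 3.72 RPM (SD, n = 6), from 24 to 84 counts a library in lung, 3 to 42 in liver and at least 5 in heart.

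miR-196b-5p, from the HOXA cluster, was highest in kidney, at 241, 408 and 265 RPM at high altitude and 274, 586 and 717 RPM at low altitude. In muscle it was at 198, 219 and 229 RPM at high and at 259.9, 181 and 239 RPM at low altitude. Kidney was above muscle in 6 of 6 goats, by a log2 difference of 0.79 ± 0.72 (SD, exact sign-flip p = 0.031, n = 6 goats). Spleen followed at 13.8 ± 7.21 RPM (9.18 to 28.3), and liver, lung and heart had means of 4.74, 4.70 and 1.41 RPM. Without the 2 kidney libraries the kidney mean went from 415 to 341 RPM for miR-196b-5p, still first, and from 149 to 109 RPM for miR-196a-5p, still second.

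For miR-196a-5p the order of means was muscle, kidney, spleen, lung, liver, heart, and 4 of the 5 neighbouring steps were not separated. Muscle was above kidney in 5 of 6 goats (exact p = 0.0625) and kidney above spleen in 4 of 6 goats (exact p = 0.125), while spleen exceeded lung in all 6 (exact p = 0.031). For miR-196b-5p the steps not separated were liver to lung and lung to heart, with 3 and 5 of 6 goats (exact p = 0.8125 and 0.0625). The miR-196a-5p to miR-196b-5p log2 ratio was -1.52 ± 0.31 (SD, n = 6) in kidney, or -1.66 ± 0.12 without the 2 libraries, 0.26 ± 0.14 in muscle and 1.68 ± 0.92 in spleen. So miR-196b-5p was 2.86-fold higher in kidney, and miR-196a-5p 1.20-fold higher in muscle and 3.20-fold higher in spleen. Kidney thus favours the b form in both families, while muscle favours miR-10b-5p strongly and miR-196a-5p slightly.

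Pooled over all 36 libraries, the 3p arms made up 0.0495% of miR-10a reads, 0.031% of miR-10b reads, 1.36% of miR-196a reads and 0.715% of miR-196b reads, shares set by the tissues with the most reads. By library the median was 0.0835% for miR-10a and 0.0379% for miR-10b, and the highest 0.335% and 0.169%, both in liver. For miR-196 single heart libraries reached 28.6% (miR-196a, from 2 counts of the 3p arm) and 9.09% (miR-196b, from 1 count). Even so, miR-10a-3p reached 52.0 ± 44.6 RPM (SD, n = 6) in kidney and 33.6 ± 12.4 RPM in lung, and miR-10b-3p 81.1 ± 28.8 RPM in kidney and 43.5 ± 12.6 RPM in muscle. Without the 2 kidney libraries the kidney means were 23.5 ± 8.44 RPM (SD, n = 4), below lung, for miR-10a-3p and 66.5 ± 15.5 RPM, still first, for miR-10b-3p. The arms of miR-10a and of miR-10b shared their leading tissues, but not their pattern between kidney libraries.

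In kidney miR-10a-3p was at 27.8, 106 and 25.8 RPM at high altitude and 11.0, 29.4 and 112 RPM at low altitude. The 2 libraries with the least miR-10a-5p were thus those with the most miR-10a-3p. Their miR-126-3p, a vessel marker, was also the highest of kidney, at 7238 and 10508 RPM against 2282 to 4995 RPM in the other 4. Summed over the 3 vessel markers, kidney levels were 84385, 95739 and 92801 RPM at high altitude and 84435, 64509 and 115266 RPM at low altitude, with miR-143-3p the most abundant. The part of these markers in the miR-10 levels was not tested.

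miR-196a-3p was counted in kidney, at 14 to 75 counts a library, and in muscle, at 27 to 51. It was at 0 in 5 heart, 5 liver, 5 lung and 4 spleen libraries. miR-196b-3p was counted in the same 2 tissues, at 12 to 34 and 17 to 49 counts, and was at 0 in 5 heart, 4 liver, 3 lung and 3 spleen libraries. Its highest count outside kidney and muscle was 2.

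Each tissue was tested against the mean of the other 5 in a single edgeR quasi-likelihood fit of all 1391 miRNAs. Being called required a Benjamini-Hochberg adjusted p under 0.05 together with a log2 fold change of 1.5 or more in size. Of the 48 tests on the 8 forms, 29 were called, 16 higher and 13 lower. The share called among all miRNAs was 12.4% in kidney, where 8 of 8 forms were called higher, and 13.7% in muscle, where 6 of 8 were called higher. It was 12.4% in lung, where 2 of 8 were called higher and 3 lower, 10.1% in heart, where 4 of 8 were called lower, and 12.1% in liver, where 6 of 8 were called lower. These shares count calls in both directions. Of the 1391 miRNAs, 141 were called higher in kidney, 134 in muscle and 124 in lung. Called lower were 49 in lung, 49 in heart and 43 in liver. The 1391 include miRNAs with few or no reads, which lowers these shares. After edgeR's filterByExpr removed miRNAs with few counts, 712 were tested. Of these, 165 were called in kidney, 165 in muscle, 170 in lung, 127 in heart, 139 in liver and 185 in spleen.

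Spleen had 0 of 8 forms called by edgeR, beside a share of 14.9% among all miRNAs. There, 4 of 8 had an unadjusted p under 0.05, and DESeq2 called 0 beside 13.4% of all miRNAs, with 5 at an unadjusted p under 0.05. miR-10b-5p in spleen had a log2 fold change of -1.21 (SE 0.45, edgeR quasi-likelihood, Benjamini-Hochberg adjusted p = 0.0556). Without high-altitude replicate 1, whose spleen held the most of it, the log2 fold change was -1.65 and it was called lower (adjusted p = 0.0219).

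In kidney the log2 fold change was 4.58 (SE 0.33, edgeR quasi-likelihood, Benjamini-Hochberg adjusted p = 4.39e-12) for miR-10b-5p and 4.09 (SE 0.33, adjusted p = 3.96e-11) for miR-10a-5p. Without the 2 kidney libraries these were 5.21 and 4.72, and 29 of 48 tests were again called. miR-196b-5p reached 5.36 (SE 0.25, adjusted p = 1.01e-16) in kidney and 5.31 (SE 0.24, adjusted p = 5.33e-17) in muscle. miR-196a-5p reached 3.35 (SE 0.34, adjusted p = 5.96e-09) and 5.43 (SE 0.33, adjusted p = 8.53e-14) in the same tissues.

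In muscle miR-10b-5p was higher by 3.32 (SE 0.34, edgeR adjusted p = 5.07e-09), but miR-10a-5p was not called, at -0.57 (SE 0.42, adjusted p = 0.622). Lung showed the reverse, with miR-10a-5p higher by 3.42 (SE 0.33, adjusted p = 2.53e-09) and miR-10b-5p not called at -0.95 (SE 0.44, adjusted p = 0.165). Both miR-196 5p arms were called lower in lung, miR-196a-5p at -2.98 and miR-196b-5p at -2.91. In heart miR-10a-5p was called lower at -3.33 (SE 0.52, adjusted p = 1.2e-05), and miR-10b-5p was not called at -1.07 (SE 0.44, adjusted p = 0.13). Liver had both lower, miR-10b-5p by -4.66 (SE 0.57, adjusted p = 3.59e-07) and miR-10a-5p by -2.93 (SE 0.50, adjusted p = 6.72e-05).

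These fold changes are scaled by edgeR's trimmed mean of M-values. Against scaling by library totals, the factors shift a tissue by a mean log2 of 0.94 in muscle, 0.45 in heart, 0.08 in kidney, -0.44 in liver, -0.48 in spleen and -0.54 in lung. The fold changes of single forms moved near these values but not by the same amount, in kidney from -0.21 to 0.27 over the 6 forms and in muscle from 0.93 to 1.02. The 3p arms shared the leading tissues of their 5p arms in the fits. miR-10a-3p was called higher in kidney, at 3.05, and lung, at 1.99, and miR-10b-3p higher in kidney, at 3.61, and muscle, at 3.51. Without the 2 kidney libraries the mean of miR-10a-3p in kidney was 23.5 RPM, below the 33.6 RPM of lung. Some weaker 3p calls turned on the settings. miR-10a-3p was called lower in liver, at -1.58, but not without high-altitude replicate 3 (-1.36) or with library totals (-1.23). miR-10b-3p was called lower in lung, at -1.80, but not with library totals (-1.35). In heart miR-10b-3p, at -1.46, was short of the minimum fold change, and was called without high-altitude replicate 3 (-1.54), without low-altitude replicate 1 (-1.62), with library totals (-1.88), and at -1.52 with RLE factors and -1.51 with DESeq2. No direction among the 36 tissue fold changes of the 6 forms above 10 RPM reversed under the 13 alternatives run.

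For altitude within each tissue, edgeR quasi-likelihood called 0 of the 8 forms in any of the 6 tissues. The share called among all miRNAs was 0.144% in spleen, 0.0719% in muscle, and 0% in lung, heart, liver and kidney alike. Of the 48 tests on the 8 forms, 1 had an unadjusted p under 0.05, and DESeq2 called 0 beside 2.14% of all miRNAs, with 6 at an unadjusted p under 0.05. That 1 was miR-10a-5p in spleen, with a log2 fold change of high over low altitude of 1.51 (SE 0.58, Benjamini-Hochberg adjusted p = 0.729).

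Other altitude differences were not called either. miR-10a-5p in lung differed by a log2 of 1.69 (SE 0.79, edgeR adjusted p = 0.832), a difference carried by replicates 1 and 3. miR-10b-5p differed by 1.19 in spleen (SE 0.68, adjusted p = 0.729) and by 0.66 in heart (SE 0.28, adjusted p = 0.748), and miR-10b-3p by -1.25 in spleen (SE 0.63, adjusted p = 0.729). In kidney, where both are abundant, miR-10b-5p differed by 0.15 (SE 0.79) and miR-10a-5p by 0.09 (SE 0.75), and both signs turned on which library was left out. They became -0.28 and -0.31 without low-altitude replicate 3, -0.17 and -0.25 without high-altitude replicate 1, and -0.05 and -0.10 without high-altitude replicate 3. Without both high-altitude replicate 2 and low-altitude replicate 3 they were 0.16 and 0.12. In spleen the differences of both 5p arms leaned on high-altitude replicate 1, without which miR-10a-5p differed by 0.67 in place of 1.51 and miR-10b-5p by 0.20 in place of 1.19. miR-196a-5p in spleen differed by 1.62 (SE 0.78, adjusted p = 0.729), or 0.77 without that replicate, and miR-196b-5p in kidney by -0.65 (SE 0.31, adjusted p = 0.959).

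In the lung libraries with the most miR-10a-5p, high-altitude replicates 1 and 3, miR-200b-3p was at 0, against 2143 RPM in replicate 2 and 868.9, 719.7 and 914 RPM at low altitude. As in kidney, whether miR-200b-3p was absent there or lost in making the counts cannot be told. miR-200a-3p and miR-429-3p were counted in these 2 libraries but were at their lowest of lung there. miR-200a-3p was at 226 and 154 RPM against 230 to 1221 RPM in the other 4, and miR-429-3p at 87.8 and 75.8 RPM against 141.8 to 285 RPM. The ciliated-cell markers miR-34b-5p and miR-34c-5p, both counted in every lung library, summed to 4893, 10557 and 2874 RPM at high altitude. They summed to 8305, 2085 and 6767 RPM at low altitude, with miR-34c-5p the more abundant. In spleen the 4 leukocyte markers, all counted, summed to 17128 RPM in high-altitude replicate 1, the library with the most miR-10a-5p and miR-10b-5p. They summed to 66939 and 61259 RPM in high-altitude replicates 2 and 3 and to 36259, 35256 and 40326 RPM at low altitude, with miR-142-5p the most abundant. miR-486-5p, 1 of 2 blood markers, was at 11988 RPM in that library, at 0 in spleen of high-altitude replicates 2 and 3 and at 3624, 3139 and 5771 RPM at low altitude. Over tissues its mean was highest in muscle, at 22874 RPM, against 4087 RPM in spleen. Whether its zeros in spleen and lung were absence or loss in making the counts cannot be told. The 2 blood markers together summed to 11988, 724 and 788.0 RPM at high and 4315, 4015 and 7488 RPM at low altitude, with miR-144-3p at 0 in replicate 1 of high altitude. In lung they summed to 18758, 0 and 5054 RPM at high and 6350, 5535 and 7364 RPM at low altitude, all of it miR-486-5p, with miR-144-3p at 0 in all 6. Of all single miRNAs, 12.1% in heart, 8.27% in lung and 9.99% in spleen did not overlap between altitudes, in either direction. The sum of the 3 vessel markers, with miR-143-3p the most abundant, did not overlap between altitudes in heart, lung and spleen, but miR-126-3p overlapped in all 3. In heart they summed to 188284, 124779 and 194900.0 RPM at high and 75961, 82776 and 73047 RPM at low altitude, while miR-126-3p was at 7528, 8914 and 5603 RPM at high and 7445, 7236 and 14132 RPM at low altitude. In lung they summed to 160563, 189369 and 259013 RPM at high and 305466, 326207 and 289089 RPM at low altitude. miR-126-3p in lung was at 11121, 35201 and 5632 RPM at high and 15371, 24678 and 24709 RPM at low altitude, lowest in the 2 libraries with the most miR-10a-5p. In spleen they summed to 357380, 405259 and 371011 RPM at high and 414367, 566990.1 and 453547 RPM at low altitude. miR-126-3p in spleen was at 1296, 4892 and 3271 RPM at high and 4967, 3655 and 5693 RPM at low altitude, lowest in high-altitude replicate 1. The part of these markers in the altitude differences was not tested.

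The altitudes did not overlap in 4 of the 48 combinations of form and tissue, or 8.33%, beside 8.75% over all miRNAs, so this share is near the background. High altitude was above low in 3 of them, miR-10a-5p in spleen and miR-10a-3p in heart and liver, and below it in 1, miR-10b-3p in muscle. miR-10b-3p in muscle was at 37.5, 22.1 and 44.7 RPM at high altitude and at 51.8, 58.2 and 46.6 RPM at low altitude, while miR-10b-5p of the same libraries overlapped.

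Each goat was also summarized by the mean of log2(RPM + 1) over its 6 tissues. For miR-10a-5p this was 13.87, 12.74 and 13.83 in high-altitude and 13.06, 13.09 and 12.54 in low-altitude goats. For miR-10b-5p it was 15.12, 14.08 and 14.93 at high and 14.39, 14.47 and 14.30 at low altitude. Replicates 1 and 3 of high altitude were above all low-altitude goats for both forms, and replicate 2 was inside or below their range. The difference was 0.58 for miR-10a-5p (exact permutation p = 0.3) and 0.33 for miR-10b-5p (exact p = 0.4), with 3 against 3 goats and a smallest possible p of 0.1. miR-196a-5p gave 0.39 (exact p = 0.3), miR-196b-5p -0.01 (exact p = 0.9), miR-10a-3p 0.45 (exact p = 0.2) and miR-10b-3p -0.51 (exact p = 0.3).

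Whether altitude differences vary by tissue was tested by an interaction in edgeR quasi-likelihood, which called 0 of 8 forms beside 0.216% of all miRNAs. miR-196a-3p alone had an unadjusted p under 0.05 (Benjamini-Hochberg adjusted p = 0.54), and DESeq2 called 0 of 8 beside 3.31% of all miRNAs, with 0 at an unadjusted p under 0.05.

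A tissue specificity index was computed from the 6 tissue means, with 0 for an even level and 1 for a single tissue. It was highest of the 8 forms for miR-10b-5p, at 0.901, with 0.882 for miR-196b-5p, 0.838 for miR-196a-5p and 0.787 for miR-10a-5p. For miR-10a-5p it was 0.839 in high-altitude and 0.84 in low-altitude libraries alone, both above the pooled value.

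Across the 36 libraries, which share tissues and goats, the forms were compared by Pearson r of log2(RPM + 1), as a description. miR-10a-5p and miR-10b-5p had r = 0.545, and 0.607 after tissue means were removed, so they also varied together between libraries of a tissue. miR-196a-5p and miR-196b-5p had r = 0.915, and 0.480 within tissues. miR-10b-5p and miR-196b-5p had r = 0.829, which fell to 0.012 within tissues. The arms of miR-10a had r = 0.851, and -0.232 within tissues, and those of miR-10b 0.875 and 0.160.

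Among 308 miRNAs with a mean of at least 10 RPM, the 5 most like miR-10a-5p over the 36 libraries were its own 3p arm (r = 0.851), miR-200c-3p (0.747), miR-141-3p (0.741), miR-205-5p (0.727) and miR-183-5p (0.726). For miR-10b-5p they were its 3p arm (0.875), miR-196b-5p (0.829), miR-196a-5p (0.777), miR-500-3p (0.709) and miR-504-5p (0.702). miR-10b-5p thus had both miR-196 5p arms on its list, and miR-10a-5p had neither. For miR-196a-5p they were miR-196b-5p (0.915), miR-10b-3p (0.848), miR-660-5p (0.840), miR-532-3p (0.831) and miR-362-3p (0.802). For miR-196b-5p they were miR-10b-3p (0.918), miR-196a-5p (0.915), miR-532-3p (0.855), miR-500-3p (0.843) and miR-10b-5p (0.829).

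The lists of the 3p arms shared names with these. miR-10a-3p was most like miR-218-5p (0.879), then miR-10a-5p (0.851), miR-205-5p (0.748), miR-429-3p (0.725) and miR-874-5p (0.723). miR-10b-3p was most like miR-196b-5p (0.918), then miR-10b-5p (0.875), miR-196a-5p (0.848), miR-362-3p (0.787) and miR-532-3p (0.784).

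miR-99a, miR-99b and miR-100 are relatives of miR-10 in sequence that lie outside the HOX clusters, with 6 mature forms listed. Against the other tissues edgeR called 2 of 6 in heart, beside 10.1% of all miRNAs, miR-100-5p at a log2 of 2.64 and miR-99a-5p at 1.71, both higher. The same 2 were called lower in spleen, at -1.54 and -1.70, beside 14.9% of all miRNAs, and miR-99b-5p was called in lung, beside 12.4%. In lung miR-99b-5p was at 0 in 3 of 6 libraries, and whether it was absent or lost in making the counts cannot be told. In kidney, liver and muscle 0 were called, with 1, 2 and 1 at an unadjusted p under 0.05. For altitude, edgeR quasi-likelihood called 2 of 6 in spleen, beside 0.144% of all miRNAs, miR-99a-5p (log2 -4.21) and miR-100-5p (log2 -3.56), and 0 in the other 5 tissues, where 4 in heart, 2 in liver, 2 in kidney, 1 in muscle and 0 in lung had an unadjusted p under 0.05. These were the only 2 spleen calls over all miRNAs. Spleen had 0 calls without high-altitude replicate 3, low-altitude replicate 2 or low-altitude replicate 3 (61, 51 and 40.0 at an unadjusted p under 0.05). With a block by replicate number it also had 0 calls (65 at an unadjusted p under 0.05). That block joins different animals across altitudes, so losing calls under it does not show how stable they are. DESeq2 called 36 in spleen. The same 2 were also lower at high altitude without overlap, though not called by edgeR, in heart (-3.44 for miR-99a-5p and -2.51 for miR-100-5p), kidney (-3.83 and -2.67) and liver (-4.10 and -3.08), where miR-10a-5p differed by 0.05, 0.09 and 0.22. They overlapped in muscle and lung. Of all miRNAs, 12.1% in heart, 5.39% in kidney and 8.34% in liver did not overlap between altitudes, in either direction. miR-99b-5p combined counts of 0 with at least 100 counts in 9 of the 12 groups of 3 libraries, which none of the 8 HOX forms did.

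miR-615 is the other miRNA of the HOX clusters with listed forms, 4 in all. miR-615-3p was highest in kidney, at 3.74, 19.9 and 8.35 RPM at high altitude and 0.607, 3.91 and 3.65 RPM at low altitude. In muscle it was at 6.18, 4.47 and 0 RPM at high and 0.572, 0 and 0 RPM at low altitude, and heart had none. Its leading tissues, kidney and muscle, are those of miR-196 and also of both arms of miR-10b. Of the 4 forms, 2 were called in kidney, 1 in muscle and 1 in spleen against the other tissues by edgeR. The shares called among all miRNAs there were 12.4%, 13.7% and 14.9%. In kidney only miR-615-3p and miR-615-5p had reads, with miR-615-5p at 1 to 3 counts a library. In spleen no form had more than 16 counts in a library. Calls of forms other than miR-615-3p, and the call in spleen, thus rest on few counts. For altitude 0 were called in any tissue, with 1 at an unadjusted p under 0.05, in kidney.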

How the data were processed

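The deposited values are whole-number read counts per mature miRNA and library. The authors called bases with CASAVA 1.8, mapped filtered reads to the goat assembly ARS1 with Bowtie, and identified miRNAs with miRDeep2 and miRBase. They kept miRNAs with at least 3 reads in a library, and the smallest maximum over libraries here is 3. RPM was computed here from library totals of the listed miRNAs.

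The members and lists were chosen with earlier results of these data known. Members are every form of miR-10a, miR-10b, miR-196a and miR-196b. For each member with a mean of at least 10 RPM, the 5 miRNAs most like it were named by Pearson r of log2(RPM + 1), and all forms of miR-99a, miR-99b, miR-100 and miR-615 were described. Where single values are singled out beyond this rule, they were chosen after their values were seen.

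edgeR 4.0.16 (R 4.3.3; TMM, glmQLFit and glmQLFTest) was run on the counts of all miRNAs without a filter, within each tissue for altitude and over 12 groups for tissues and the interaction. The study gives edgeR as its tool, without saying which of its tests. p values were adjusted over all miRNAs by Benjamini-Hochberg. Exact permutation tests exchanged goats (20 assignments) or flipped signs within goats (64 patterns), and ratios took 0.5 added to each count. Replicate numbers of a population were taken as the same goat in every tissue, from the study's methods. A number means another animal in each population, so altitudes were not paired.

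Alternatives were DESeq2 1.42.0, RLE factors, library totals, totals without the members, filterByExpr, edgeR's exact test, one fit over all libraries, summed arms, other pseudocounts, a replicate block, and each replicate left out. The replicate block was the goat for tissues and the interaction. For altitude within a tissue it was the replicate number, which joins different animals. Leaving out 2 kidney libraries was added after seeing the data. The tests were tried on simulated data with known changes, and no result given here rests on that trial. Python 3.11.15 with NumPy 2.4.6, pandas 2.3.3, SciPy 1.17.1 and matplotlib 3.10.9 did the rest. RefSeq names of neighbouring genes come from a later annotation, ARS1.2.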

Additional observations from a re-analysis of the deposited data

Results flagged for a closer look

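In 42 sets of 6 libraries, the levels of the members with a mean of at least 10 RPM and the ratio of miR-10a-5p to miR-10b-5p in each tissue, the highest or lowest library was compared with its nearest neighbour. In 8 of the 42 the gap took more of the whole range than Dixon's 95% limit for 6 samples. Of the 36 sets of levels 7 passed it, or 19.4%, beside 18.8% of the 1848 sets from all 308 miRNAs of at least 10 RPM, so the share is near the background. The limit is meant for values spread evenly about their mean, which RPM often are not.

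Spleen of high-altitude replicate 1 was such a library for 3 forms. It held 26665 RPM of miR-10a-5p (next 12365), 47868 RPM of miR-10b-5p (next 21958) and 28.3 RPM of miR-196b-5p (next 12.9). Spleen of high-altitude replicate 3 was far from the others in 2 measures, with miR-10a-3p at 31.9 RPM (next 12.8) and a log2 ratio of miR-10a-5p to miR-10b-5p of 0.54 (next -0.84).

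Heart of high-altitude replicate 3 held 2.55 RPM of miR-10a-3p (next 0.726) and 10.4 RPM of miR-196a-5p (next 2.10). Lung of high-altitude replicate 2 held 57.5 RPM of miR-10a-3p (next 35.5). All 8 come from high-altitude libraries, as do 63.2% of those over all 308 miRNAs.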

How the results depend on the processing

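The count of members called for altitude and for the interaction was 0 under every alternative run, including the replicate block and the 2 kidney libraries left out. For tissues it was 28 to 35 beside 29, with 35 by DESeq2, 28 with library totals and 29 with the replicate block. Of 36 tissue fold changes under 13 alternatives, 459 values kept direction and call, 6 gained a call, 3 lost it and 0 reversed. The 68 of 90 tissue pairs in which all goats went the same way became 68 to 75, and the 14 ratio pairs stayed 14 with arms summed.

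Calls over all miRNAs moved more. For altitude 3 became 18 with filterByExpr, 28 with the exact test, 0 with the replicate block, 179 with DESeq2, 54 in one fit and 0 to 12 with a replicate left out. For the interaction 3 became 5 with filterByExpr, 46 with DESeq2 and 0 to 10 with a replicate left out. The cause was not tested.

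Altitude log2 fold changes near 0 reversed, and the cause was not tested. miR-10a-5p in heart (0.05) became -0.11 with filterByExpr, -0.23 in one fit and -0.41 to 0.85 with a replicate left out. In kidney (0.09) it ran from -0.31 to 0.85 and in liver (0.22) from -0.31 to 0.60, with -0.0114 for library totals. miR-10b-5p in kidney (0.15) ran from -0.28 to 1.07, and in liver (-0.08) from -0.17 to 0.16, with 0.0013 by DESeq2 and RLE factors. Over goats miR-196b-5p (-0.01) became 0.0199 with a pseudocount of 0.1 RPM, 0.0464 with totals without the members, 0.0584 with TMM and -0.0642 to 0.0678 with a goat left out.

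With 3 goats a group, exact tests of altitude cannot give a p under 0.1. Goats that share a number were not paired across altitudes: their libraries had a mean r of 0.0725 (-0.393 to 0.468, 18 pairs). Whether a number is the same goat in each tissue rests on the labels, and r between tissues of a number averaged -0.0224 to 0.143.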
